A study of Beta vulgaris with 9 samples.

Results

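Genes for histones, cyclins, tubulins, kinesins and related parts of the cell division and cytoskeleton machinery were followed in sugar beet leaves before and during alkaline treatment. Members were all genes whose product name holds histone H, cyclin-, tubulin, kinesin, microtubule, DNA replication, DNA polymerase, mitotic, formin or villin, with protein kinases left out, and the rule used no expression value. It found 76 of the 24351 gene identifiers. A further look at the names showed that 4 of the 76 were found only because "formin" stands inside the word "forming": 2 succinate--CoA ligase [ADP-forming] subunits, a cardiolipin synthase (CMP-forming) and a transforming growth factor-beta receptor-associated protein. These 4 are given apart, which leaves 72 members: 26 kinesins, 13 DNA replication proteins and DNA polymerases, 11 cyclins and cyclin-binding proteins, 8 tubulins and tubulin cofactors, 7 formins and villins, 3 histones, 3 microtubule-associated proteins and 1 mitotic checkpoint protein. Only 6515 of the gene identifiers carry a product name, so every family is incomplete, with a lone beta-tubulin and no alpha-tubulin among the members.

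Dividing plant cells copy their DNA with replicative polymerases, pack it with newly made histones and pass through the cycle as A, B and D cyclins activate their kinases. Other cyclins, of the C, H and T types, work with kinases that act on RNA polymerase II in transcription. The kinase of the H type also activates other cyclin-dependent kinases, so this type serves the cycle as well. Kinesins are motors that walk on microtubules, polymers of alpha- and beta-tubulin, and serve both the spindle and transport or wall building in cells that no longer divide. Villins bundle and formins nucleate actin filaments, the tracks of organelle movement in mature leaf cells.

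Leaves of cultivar KWS0143 were taken from seedlings before treatment at day 0 (control, C), at day 3 (short-term, ST) and at day 7 (long-term, LT) of a 75 mM mixture of sodium bicarbonate and sodium carbonate, with 3 biological replicates of each. All plants were 5 weeks old when treatment began, and all groups share the nutrient solution, so the groups differ in alkali and also in leaf age and day of harvest, which cannot be told apart. The authors removed ribosomal RNA, kept the strand and gave each transcript an FPKM value, in which fragments are divided by the length of the transcript and by the total mapped in the library. Read counts were not analysed here, so the depth behind a value is unknown, and in whole leaves fewer cells of a type and less RNA per cell cannot be told apart.

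FPKM was summed over the transcripts of a gene. Total FPKM was 1096069 to 1115393 in C, 1088388 to 1119080 in ST and 915463 to 1038379 in LT libraries. On the first principal component of all genes tested, C replicate 1 lay at 1.07 while the other controls lay at -55.76 and -71.86, beside -20.27 to 3.22 for ST and 22.77 to 63.54 for LT. On this component C replicate 1 stood apart from the other controls and among the ST libraries, while on the next component it lay at 25.58 and the ST libraries at -16.24 to -9.16. Leaf mesophyll markers, 26 genes of the light-harvesting complexes, photosystem I, the oxygen-evolving complex and the Rubisco small subunit, all passed the filter on low values, with a summed FPKM of 56049 to 71835 in C, 37588 to 50814 in ST and 28819 to 44747 in LT. Of these, 14 (53.8%) fell and 0 rose in LT against C, where 7.23% of all genes tested fell and 31.1% rose. Of 6 shoot meristem markers, 2 passed the filter and 1 was listed at 0 in all libraries, and their summed FPKM was 8.51 to 15.2 in C, 13.9 to 16.8 in ST and 11.3 to 18.4 in LT. The part of either list in the values of the members was not tested.

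The median of the mean FPKM over 9 libraries was 1.93 for the 72 members and 1.47 for all genes. Among those that passed the filter on low values the order was reversed, at 3.63 for the members and 5.97 for all genes. Of the members, 24 were under 1 FPKM and 6 were over 10 FPKM. The highest member by far was the tubulin beta-6 chain (LOC104889522), a subunit of the microtubule itself, at 102.9 FPKM, followed by villin-3 (LOC104889358) at 26.2 FPKM. FPKM is scaled by length, so these levels can be compared between genes.

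**Figure D1:**
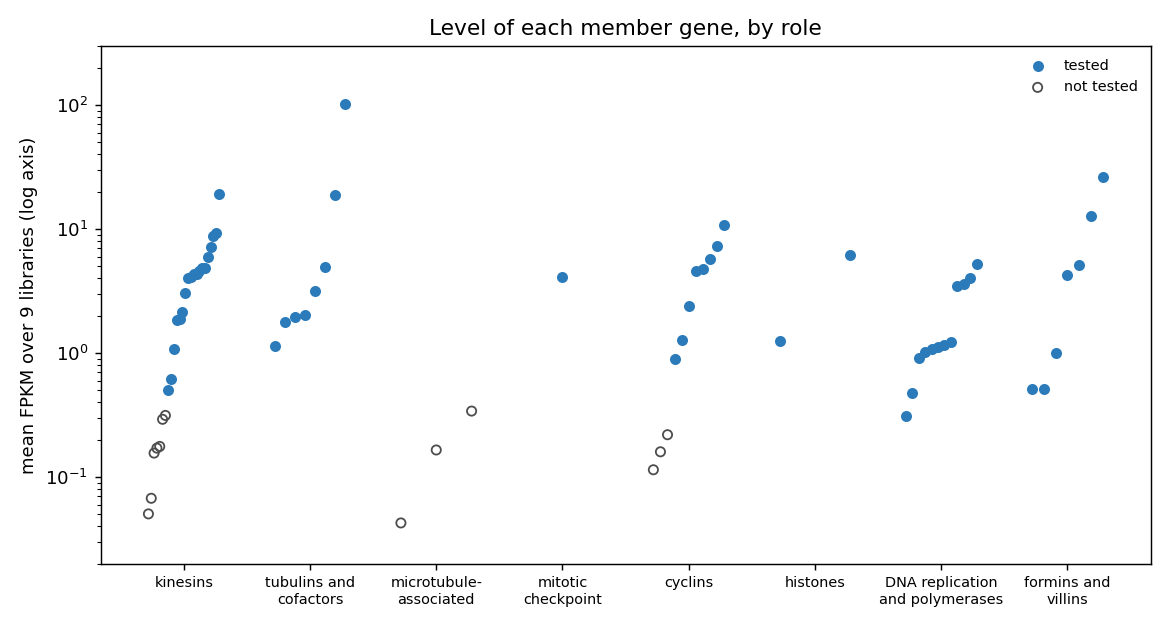
Mean FPKM over the 9 libraries of each member (vertical log axis), grouped by role, with filled points for the members tested and open points for those under the filter on low values. The 2 members listed at 0 in every library are not drawn, and the tubulin beta-6 chain at 102.9 FPKM is the highest point.

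A gene was tested where the mean of at least 1 group was over 0.5 FPKM, which 57 of the 72 members (79.2%) and 59.5% of all genes passed. Of the 57, 52 passed in every group, formin-like proteins 3 and 13 passed in ST and LT, and DNA2, the DNA polymerase delta small subunit and KIN-7O passed through LT alone. The DNA polymerase delta small subunit, an accessory subunit of a replicative polymerase, was listed at 0 in C replicate 1, ST replicates 1 and 3 and LT replicate 2. Just inside the filter were DNA2, with a highest group mean of 0.528 FPKM, and formin-like protein 3 at 0.570 FPKM, and just outside were KIN-1 at 0.436 and KIN-10C at 0.415 FPKM.

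The 15 members under the filter were the 3 G2/mitotic-specific cyclins S13-7, 7 kinesins, all 3 microtubule-associated proteins, a histone H3-like gene and a DNA polymerase I gene. The highest value of any of them in any library was 0.627 FPKM, for the 65-kDa microtubule-associated protein 3-like (LOC104898905), whose Arabidopsis relative crosslinks microtubules in the phragmoplast. Its libraries held 0.627, 0.363 and 0.0649 FPKM in C, 0.271, 0.505 and 0.0841 in ST and 0.607, 0 and 0.545 in LT, with groups that overlapped. The histone H3-like gene and the DNA polymerase I gene were listed at 0 in all 9 libraries. Of the pair of genes named KIN-12D, which lie 31938 bases apart on the same strand, only LOC104904456 was above the filter. Its longest transcript has 1386 bases and 4 exons, and that of LOC104904452 has 8461 bases and 36 exons. Their sequences were not compared.

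Differences were tested with limma on log2(FPKM + 1) in a single fit of the 9 libraries, with Benjamini-Hochberg adjustment over the 14491 genes tested and a threshold of 0.05. A fold on this scale understates the change of a low gene. The median log2 change of all genes tested was 0.11 in ST against C, 0.26 in LT against C and 0.15 in LT against ST, so each log2 change is also given relative to that median.

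In LT against C, 8 of the 57 members tested rose and 1 fell, or 14.0% and 1.75%, against 31.1% and 7.23% of all genes tested. In either direction this was 15.8% of the members and 38.3% of all genes. The members that rose were DNA polymerases kappa and zeta, cyclins T1-4 and H1-1, kinesins KIN-7F and KIN-7C, tubulin-folding cofactor A and villin-3, and the one that fell was a kinesin light chain. The share of members that rose was thus below that of all genes, and the median log2 change of the members was 0.15, or -0.11 relative to all genes, with 22 of 57 members above the median of all genes. In 21 members the LT libraries all lay above the C libraries, and in 3 all below, 36.8% and 5.26% against 38% and 9.85% of all genes. At an unadjusted p under 0.05, 15 members were higher and 3 lower, where all genes gave 40.7% and 9.79%.

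The split between higher and lower members, like that of all genes, depended on the scaling of the libraries. With median-ratio scaling, which moved the median of all genes tested from 0.26 to 0.02, 3 members were higher and 7 lower at the threshold, against 1452 higher and 1848 lower among all 14465 genes, and the members' median log2 change was -0.04. DNA polymerase kappa, cyclin-T1-4 and KIN-7F were still higher, and the kinesin light chain was still lower. Without C replicate 1, 8 members rose and 3 fell, or 19.3% of the members against 39.9% of all genes called. Without C replicate 3, 5 rose and 0 fell, or 8.77% of the members against 16.0% of all genes.

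**Figure D2:**
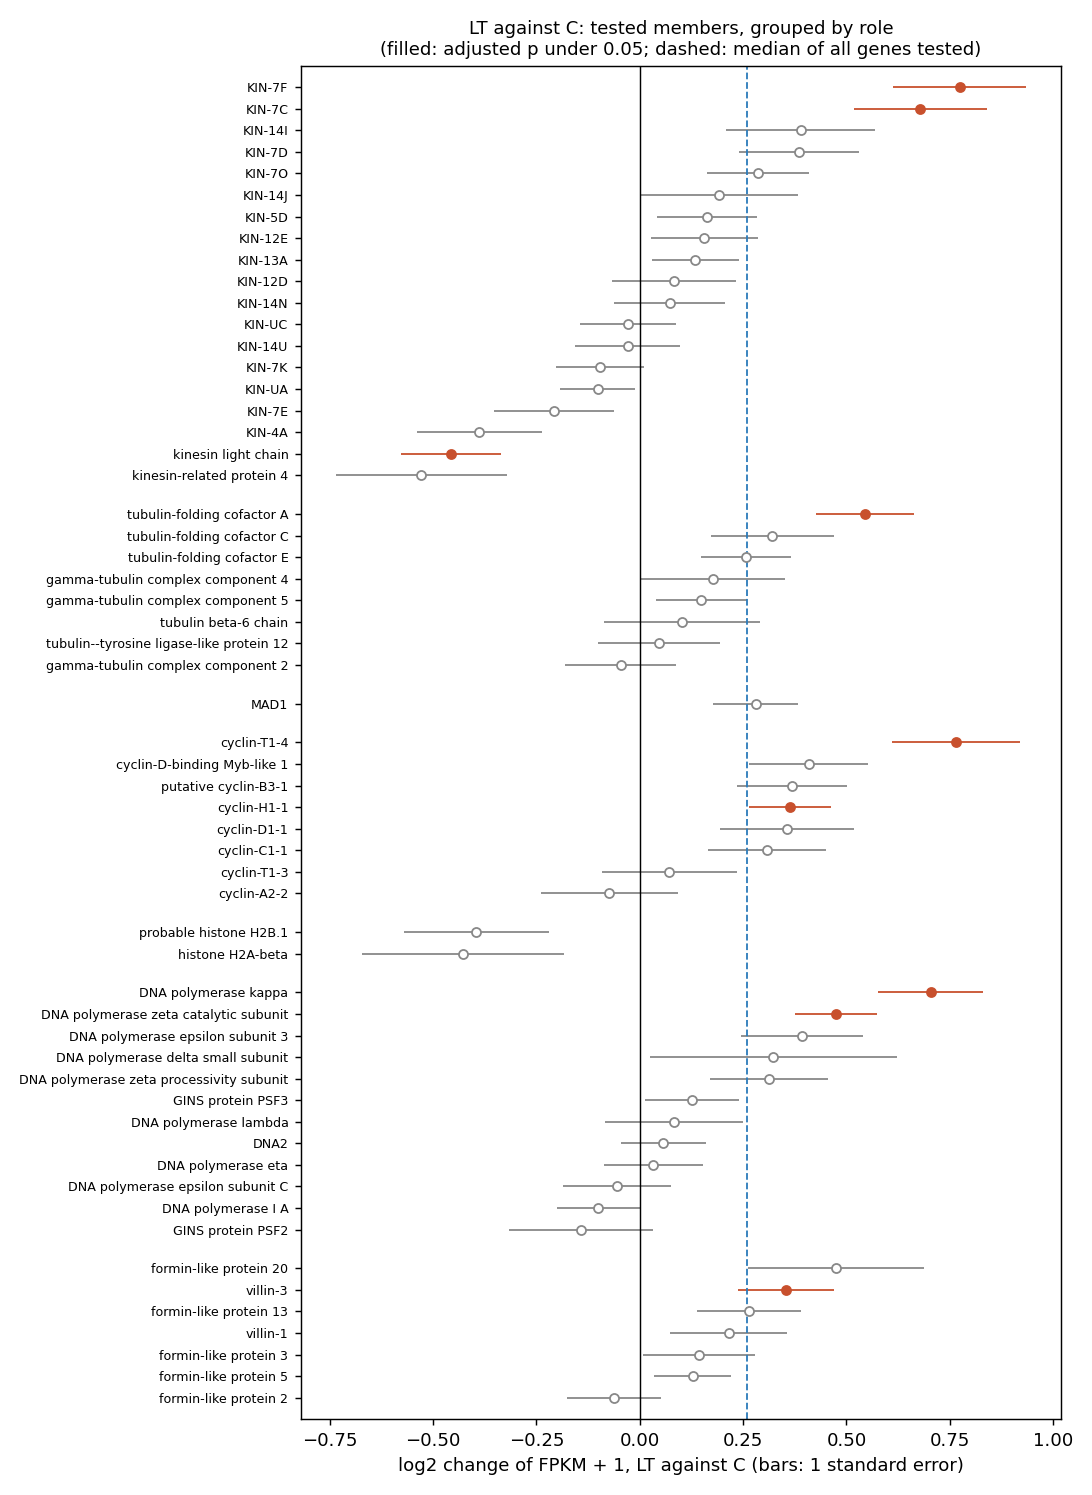
Log2 change of FPKM + 1 in LT against C (horizontal axis) for the 57 members tested, grouped by role, with bars of 1 standard error, filled points for an adjusted p under 0.05 and a dashed line at the median of all genes tested (0.26). The 8 filled points on the right lie between 0.35 and 0.77, and the kinesin light chain lies at -0.46.

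Among the cyclins, T1-4 and H1-1 rose, both of types whose kinases act on RNA polymerase II. The cycle cyclins B3-1 and D1-1 had log2 changes close to that of H1-1 without passing the test. A difference between the types was not tested. Cyclin-T1-4 (LOC104884616), a partner of the kinases that release RNA polymerase II into elongation, held 5.62, 5.91 and 4.15 FPKM in C, 7.13, 7.06 and 6.96 in ST and 8.85, 11.7 and 8.23 in LT. Each ST library lay above each C library, and each LT library above each ST library. It rose from 5.23 ± 0.944 (SD, n = 3) to 9.59 ± 1.85 FPKM (SD, n = 3) in LT against C, a log2 change of 0.76 (SE 0.154, adjusted p = 0.00974) and 0.50 relative to all genes. Its main transcript made up 72.7% of the gene's FPKM in C, 80.6% in ST and 91.2% in LT.

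Cyclin-H1-1 (LOC104890810), the regulatory subunit of the kinase that activates other cyclin-dependent kinases and is part of the general factor TFIIH, held 4.73, 4.95 and 4.68 FPKM in C, 5.76, 5.45 and 6.72 in ST and 6.61, 6.61 and 6.12 in LT. All treated libraries were above all controls, while ST and LT overlapped. Its log2 change in LT against C was 0.36 (SE 0.10, adjusted p = 0.0241), only 0.10 above the median of all genes. The call was lost without C replicate 2 or 3 or LT replicate 1 or 2 (adjusted p between 0.0501 and 0.0764).

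The remaining cyclins and cyclin-binding proteins did not pass the test in LT against C. Nearest was the cyclin-D-binding Myb-like transcription factor 1 (LOC104897206), with a log2 change of 0.41 (adjusted p = 0.0513) and every LT library above every C library. Cyclin-C1-1 (LOC104908781), the cyclin of the Mediator kinase module and the highest of the role, was at 9.22 ± 0.924 FPKM in C and 11.6 ± 0.926 in LT (SD, n = 3 each, adjusted p = 0.117), with LT above C in every library. In the putative cyclin-B3-1 (LOC104906254) and cyclin-D1-1 (LOC104908471), chosen after their values were seen, every LT library lay above every C library, at log2 changes of 0.37 (adjusted p = 0.0558) and 0.36 (adjusted p = 0.109). Cyclin-T1-3, of the same type as T1-4, had a log2 change of 0.07 and the cycle cyclin A2-2 one of -0.07. Of the 8 cyclins and cyclin-binding proteins tested, 2 (25.0%) rose and 0 fell, against 31.1% and 7.23% of all genes. The LT libraries lay above all C libraries in 6 (75.0%), against 38% of all genes, and the summed FPKM was 30.8 to 34.2 in C, 33.6 to 41.5 in ST and 38.1 to 48.8 in LT.

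Both DNA polymerases that rose belong to translesion synthesis, in which a specialised polymerase copies past damaged bases. DNA polymerase kappa (LOC104904866) held 3.00, 2.91 and 2.75 FPKM in C, 3.51, 4.55 and 3.62 in ST and 5.12, 4.71 and 6.25 in LT. The groups did not overlap in any comparison, with C lowest and LT highest. Its level went from 2.89 ± 0.125 to 5.36 ± 0.801 FPKM (SD, n = 3 each) in LT against C, with a log2 change of 0.70 (SE 0.127, adjusted p = 0.00724), the smallest p of all members, and 0.44 relative to all genes.

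The catalytic subunit of DNA polymerase zeta (LOC104890826) held 2.84, 2.99 and 2.55 FPKM in C, 4.10, 3.60 and 3.78 in ST and 4.28, 4.55 and 3.98 in LT. Its C libraries were the lowest 3, and its ST and LT libraries overlapped. It rose by a log2 of 0.48 in LT against C (SE 0.0992, adjusted p = 0.0107), 0.22 relative to all genes. The processivity subunit of the same enzyme (LOC104900038) had a log2 change of 0.31 (adjusted p = 0.110) and DNA polymerase eta (LOC104898859), also a translesion enzyme, one of 0.03 (adjusted p = 0.835).

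The other members of the role did not pass the test, and a difference between translesion and replicative proteins was not tested. DNA polymerase epsilon subunit 3 (LOC104900308), of a replicative enzyme, came nearest, at 0.983 ± 0.315 FPKM in C and 1.58 ± 0.0998 in LT (SD, n = 3 each, log2 change 0.39, adjusted p = 0.0636). DNA polymerase epsilon subunit C (LOC104903253), at a higher level of 3.67 FPKM in C and 3.53 in LT, had a log2 change of -0.05 (adjusted p = 0.753). The GINS subunits PSF2 and PSF3, part of the replicative helicase, had log2 changes of -0.14 and 0.13. DNA polymerase I A (LOC104889482), whose Arabidopsis relative copies organelle DNA, was the highest of the role and held 5.36 ± 0.578 FPKM in C, 5.41 ± 0.181 in ST and 4.93 ± 0.283 in LT (SD, n = 3 each), with a log2 change of -0.10 in LT against C (adjusted p = 0.445). With median-ratio scaling this polymerase was lower in LT, by a log2 of -0.36 (adjusted p = 0.0263). Over the role, 2 of 12 members tested (16.7%) rose and 0 fell, against 31.1% and 7.23% of all genes, and the summed FPKM was 20.3 to 22.7 in C, 22.7 to 24.3 in ST and 25.9 to 27.3 in LT.

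Kinesins were the largest family, and their changes went both ways. KIN-7F (LOC104904253) held 3.93, 3.35 and 2.46 FPKM in C, 3.30, 3.20 and 4.28 in ST and 5.44, 6.96 and 6.24 in LT. The C and ST libraries overlapped and all LT libraries lay above both. It rose by a log2 of 0.77 in LT against C (SE 0.161, adjusted p = 0.0106), 0.51 relative to all genes and the highest change of all members tested. With its highest single transcript alone the log2 change was 0.50 (adjusted p = 0.0572), and that transcript made up 86.8% of the gene's FPKM in C and 70.6% in LT.

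KIN-7C (LOC104895127), of the same plant kinesin family, held 3.33, 3.79 and 3.40 FPKM in C, 4.83, 4.68 and 4.52 in ST and 6.33, 8.04 and 4.65 in LT. Treated libraries all lay above the controls, and LT replicate 3 lay inside the ST range. Its log2 change in LT against C was 0.68 (SE 0.161, adjusted p = 0.0149), 0.42 relative to all genes, and its adjusted p was 0.0522 without C replicate 3. KIN-7D (LOC104904286), the highest kinesin, was at 16.6 ± 1.89 FPKM in C and 22.0 ± 2.99 in LT (SD, n = 3 each) and missed the threshold, with a log2 change of 0.38 (adjusted p = 0.0640), which it passed without LT replicate 3 (adjusted p = 0.0359).

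The kinesin light chain gene (LOC104888218), named for the subunit that binds cargo in animal kinesin-1, was the only member that fell. It held 4.51, 4.75 and 5.00 FPKM in C, 4.85, 3.96 and 3.54 in ST and 2.85, 3.42 and 3.32 in LT, so all LT libraries were below every other library. Its log2 change in LT against C was -0.46 (SE 0.120, adjusted p = 0.0209), or -0.72 relative to all genes, and the call was lost without C replicate 2, C replicate 3 or LT replicate 1 (adjusted p = 0.0584, 0.0730 and 0.0503).

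Other kinesins with lower LT values, chosen after their values were seen, were KIN-4A (LOC104902551), whose Arabidopsis relative FRA1 is needed for ordered cell wall deposition, and kinesin-related protein 4 (LOC104904289). KIN-4A held 4.06, 5.76 and 5.05 FPKM in C, 3.73, 4.42 and 5.22 in ST and 3.86, 3.71 and 3.04 in LT. All LT libraries were below all C libraries, at a log2 change of -0.39 (adjusted p = 0.0700), which became -0.50 without C replicate 1 (adjusted p = 0.0356). KIN-7E (LOC104891044), which the study lists as a candidate target of a lncRNA, held 2.05, 2.66 and 1.88 FPKM in C, 1.67, 1.53 and 1.90 in ST and 1.81, 2.16 and 1.35 in LT. Its groups overlapped in all 3 comparisons, and its log2 change in LT against C was -0.21 (SE 0.145, adjusted p = 0.274).

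Over the 19 kinesins tested, 2 (10.5%) rose and 1 (5.26%) fell, against 31.1% and 7.23% of all genes, and 5 of 19 had a log2 change above the median of all genes. Their median change was 0.08, or -0.18 relative to all genes. Summed kinesin FPKM overlapped between the groups, at 85.1 to 97.9 in C, 91.1 to 98.1 in ST and 86.7 to 106.0 in LT.

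**Figure D3:**
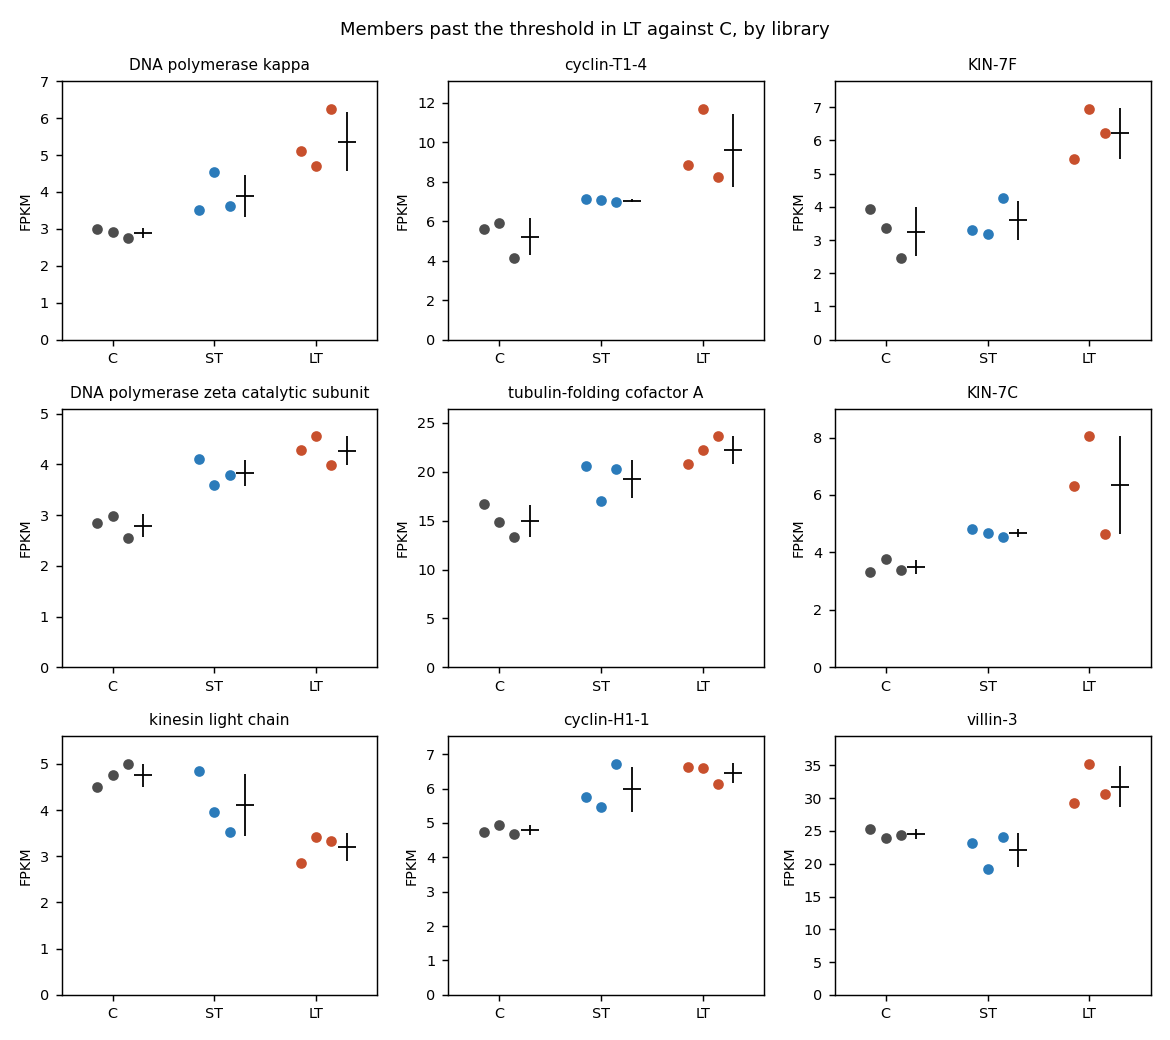
FPKM in each library (points, replicates 1 to 3 from left to right) of the 9 members past the threshold in LT against C, with the group mean and SD (black, n = 3). In every panel the LT points lie clear of the C points, above them in 8 genes and below them for the kinesin light chain.

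Among the tubulins, the tubulin beta-6 chain held 93.0, 96.7 and 97.3 FPKM in C, 107, 110.1 and 105 in ST and 136, 107 and 74.4 in LT. The C and ST libraries were tight and separate, while the LT libraries reached from below every control to above every other library. Its SD was 2.35 FPKM in C, 2.45 in ST and 30.7 in LT (n = 3 each), and its log2 change in LT against C was 0.10 (SE 0.189, adjusted p = 0.683). It made up 75.2% of the summed FPKM of its role, which therefore ran from 112 to 173 in LT, against 123 to 125 in C and 141 to 144 in ST.

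Tubulin-folding cofactor A (LOC104886754), a chaperone that holds newly made beta-tubulin, held 16.7, 14.8 and 13.4 FPKM in C, 20.6, 17.1 and 20.3 in ST and 20.8, 22.2 and 23.6 in LT. Every group lay clear of the others, in the order C, ST, LT. It rose by a log2 of 0.54 in LT against C (SE 0.118, adjusted p = 0.0118), 0.28 relative to all genes. Cofactors C and E had log2 changes of 0.32 and 0.26 and the gamma-tubulin complex components 2, 4 and 5, which nucleate microtubules, changes between -0.05 and 0.18, none past the threshold. In all, 1 of 8 members of the role (12.5%) rose and 0 fell, against 31.1% and 7.23% of all genes.

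Among the actin proteins, villin-3 held 25.3, 23.9 and 24.4 FPKM in C, 23.2, 19.2 and 24.1 in ST and 29.3, 35.2 and 30.7 in LT. The LT libraries were above all others and ST overlapped with C. It rose by a log2 of 0.35 in LT against C (SE 0.116, adjusted p = 0.0410), 0.09 relative to all genes. This was the weakest call of the 9, kept in 9 of 22 alternative settings and, of the 9 that leave out a library, only without ST replicate 2 or LT replicate 1, and with median-ratio scaling the log2 change was 0.06 (adjusted p = 0.719).

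The 5 formins and villin-1 did not pass the test in LT against C, with log2 changes from -0.06 to 0.48. Formin-like protein 5 (LOC104895719), the highest formin, held 12.2, 12.3 and 12.2 FPKM in C and 13.7, 12.4 and 14.3 in LT, a log2 change of 0.13 (adjusted p = 0.291). Summed FPKM of formins and villins was 46.2 to 48.5 in C, 40.9 to 48.0 in ST and 55.0 to 62.0 in LT, and villin-3 made up 52.0% of it.

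Both histone genes tested were lower in mean after treatment, and neither passed the test. The probable histone H2B.1 (LOC104900160), a core histone, held 5.96, 7.22 and 8.33 FPKM in C, 6.87, 5.86 and 5.99 in ST and 5.31, 6.61 and 3.89 in LT, with overlapping groups. Its log2 change in LT against C was -0.40 (SE 0.176, adjusted p = 0.103) and -0.66 with median-ratio scaling (adjusted p = 0.0314). Histone H2A-beta (LOC104885330) held 1.15, 2.91 and 1.66 FPKM in C, 1.06, 0.291 and 0.887 in ST and 1.24, 0.888 and 1.18 in LT. Its ST libraries were all below its C libraries, with a log2 change of -0.72 in ST against C (SE 0.244, adjusted p = 0.143).

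MAD1 (LOC104897020), a protein of the spindle checkpoint that holds back anaphase, held 3.20, 3.86 and 3.53 FPKM in C, 4.28, 3.94 and 4.73 in ST and 4.62, 4.27 and 4.60 in LT. All treated libraries were above all controls. Its log2 change in LT against C was 0.28 (SE 0.103, adjusted p = 0.0596), close to the median of all genes.

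**Figure D4:**
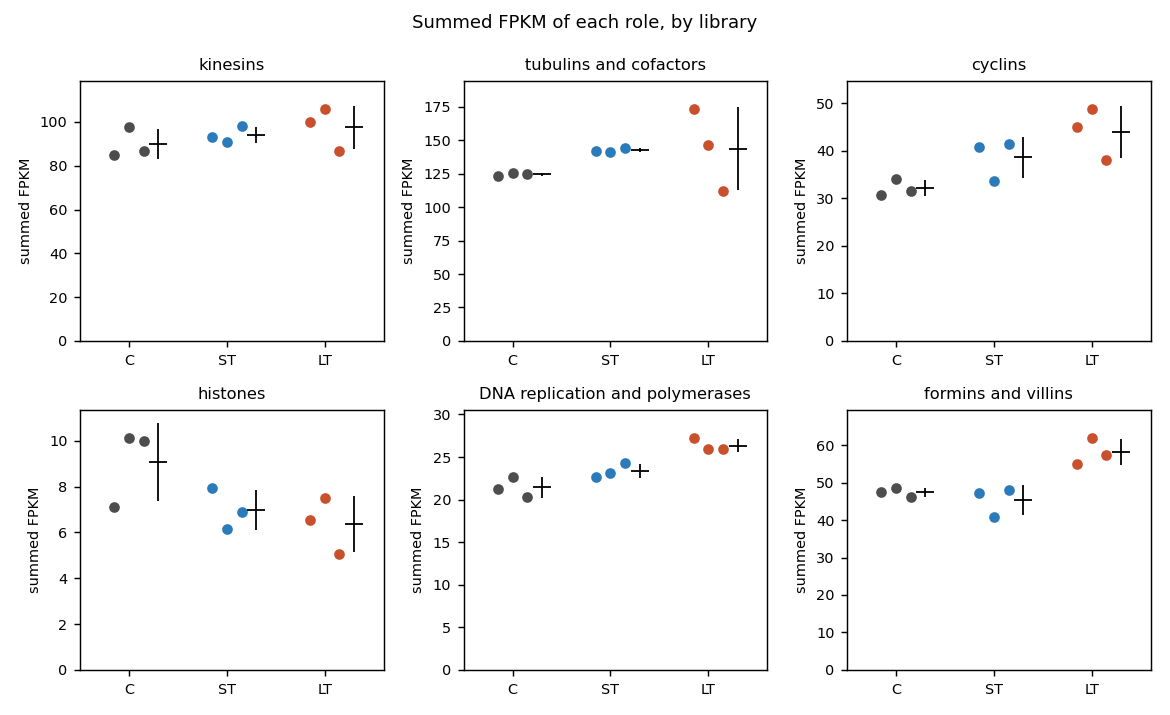
Summed FPKM of the members of 6 roles in each library (points, replicates 1 to 3 from left to right), with the group mean and SD (black, n = 3). The LT libraries lie above all C libraries for cyclins, DNA replication and polymerases, and formins and villins, overlap with C for kinesins and histones, and are spread from 112 to 173 for tubulins and cofactors.

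In ST against C, 0 of the 57 members rose and 0 fell, where limma called 0.0759% of all genes tested as higher and 0.0276% as lower, or 0.104% in either direction. At an unadjusted p under 0.05, 7 members were higher and 2 lower, against 15.1% and 7.1% of all genes. The groups did not overlap in 14 members, 11 higher and 3 lower in ST, or 19.3% and 5.26% against 20.8% and 9.9% of all genes. The median log2 change was 0.08, or -0.03 relative to all genes, and the smallest adjusted p was 0.0993. In this comparison 0 members were called in 21 of the 22 alternative settings, and 5 (8.77%) with array weights, which called 15.1% of all genes. Without C replicate 1, 0 members and 3.60% of all genes were called.

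That smallest p belonged to KIN-14U (LOC104890980), of a family of mostly minus-end-directed kinesins, named here after its values were seen. It held 3.96, 4.20 and 3.80 FPKM in C, 6.37, 5.19 and 6.01 in ST and 4.73, 3.59 and 3.43 in LT. All ST libraries were above all C and LT libraries. Its log2 difference was 0.46 in ST against C (SE 0.127), -0.03 in LT against C (adjusted p = 0.866) and -0.49 in LT against ST (adjusted p = 0.0902).

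In LT against ST, 0 members passed the threshold, where limma called 0% of all genes tested. At an unadjusted p under 0.05, 5 members were higher and 3 lower in LT, against 22.4% and 5.34% of all genes, and the groups did not overlap in 12 higher and 4 lower members, 21.1% and 7.02% against 27.3% and 6.57% of all genes. The smallest adjusted p was 0.0837, for the cyclin-D-binding Myb-like transcription factor 1 (LOC104897206), named after a mammalian factor that binds D cyclins. It held 1.92, 2.62 and 2.04 FPKM in C, 1.74, 1.37 and 1.98 in ST and 3.34, 3.71 and 2.69 in LT, so LT lay above all other libraries.

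Kinesin-related protein 4 had the lowest log2 change of the members in both comparisons of LT leaves. It held 7.60, 10.6 and 9.83 FPKM in C, 11.4, 14.7 and 10.3 in ST and 8.36, 4.89 and 5.51 in LT. The ST libraries were all above the LT libraries, while LT replicate 1 lay inside the C range. Its log2 change was -0.87 in LT against ST (SE 0.207, adjusted p = 0.0868) and -0.53 in LT against C (adjusted p = 0.0711).

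Whether these LT against ST differences passed depended on the handling of the libraries. Without LT replicate 1, 4 members (7.14%) passed, against 8.74% of all genes: kinesin-related protein 4 (log2 -1.07, adjusted p = 0.0282) and KIN-14U (-0.60, 0.0340) were lower, and villin-3 (0.56, 0.0437) and KIN-7F (0.73, 0.0484) were higher in LT. With array weights and all libraries kept, 8 members (14.0%) passed, against 26.2% of all genes, with the Myb-like factor among them.

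**Figure D5:**
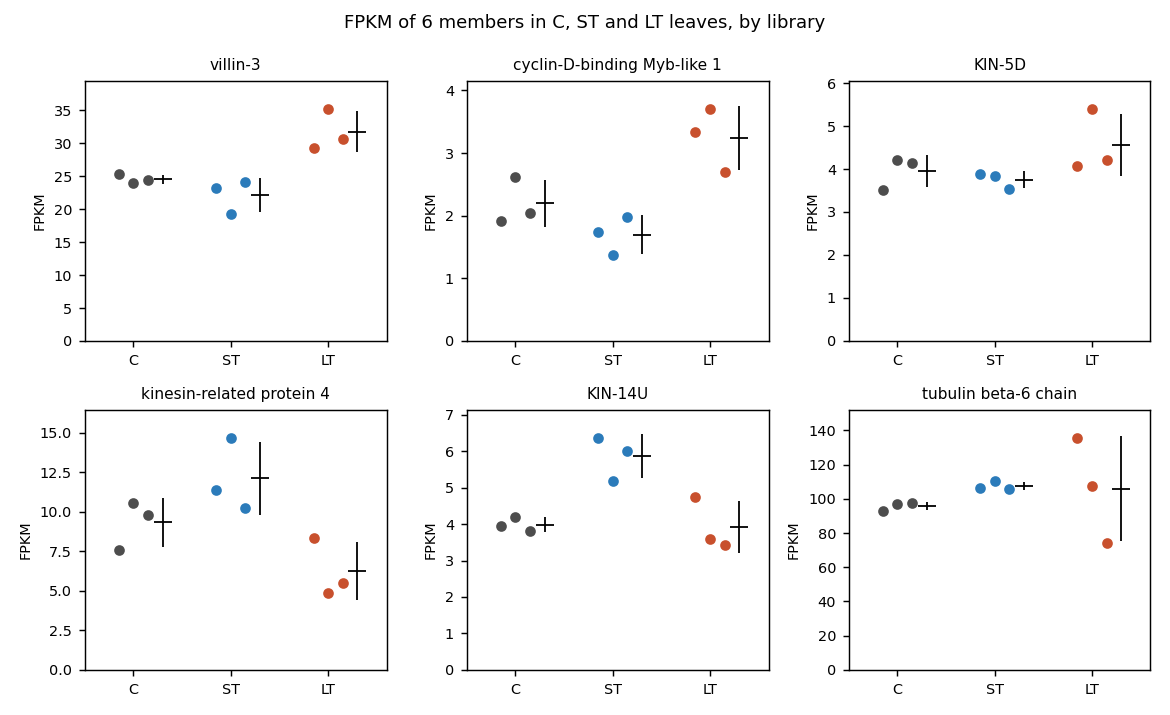
FPKM in each library (points, replicates 1 to 3 from left to right) of villin-3, the cyclin-D-binding Myb-like factor, KIN-5D, kinesin-related protein 4, KIN-14U and the tubulin beta-6 chain, with the group mean and SD (black, n = 3). Kinesin-related protein 4 and KIN-14U are highest in ST, villin-3 and the Myb-like factor are highest in LT, and the tubulin beta-6 chain spreads from 74.4 to 136 FPKM in LT.

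Other cell cycle genes were taken by product name outside the rule, together with every cyclin-dependent kinase, including those that act in transcription. Of 37 tested among 43, 7 rose and 0 fell in LT against C, 18.9% against the 31.1% of all genes, and their median log2 change was 0.18, or -0.08 relative to all genes. The smallest p belonged to cyclin-dependent kinase C-1 (LOC104895672), of the kinase class that pairs with T cyclins, at 2.48, 1.79 and 1.44 FPKM in C, 2.78, 2.88 and 3.91 in ST and 4.95, 3.80 and 5.71 in LT (log2 change in LT against C 1.01, adjusted p = 0.00724). Its C libraries were the lowest 3. Anaphase-promoting complex subunit 2, cyclin-dependent kinase G-2 and DNA topoisomerase 2 rose by a log2 of 0.57, 0.63 and 0.90. In ST against C and in LT against ST, limma called 0 of the 37, against 0.104% and 0% of all genes. At an unadjusted p under 0.05, 6 were higher and 1 lower in ST against C, where all genes gave 15.1% and 7.1%. In LT against ST 4 were higher and 1 lower, where all genes gave 22.4% and 5.34%.

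Of 17 other actin cytoskeleton genes tested among 22, 1 (5.88%) rose and 0 fell in LT against C, where 31.1% and 7.23% of all genes did, the myosin-9 gene at a log2 change of 0.39 (adjusted p = 0.0414). Of 4 growing leaf genes tested among 7, 2 (50.0%) rose and 0 fell, against 31.1% and 7.23% of all genes. Both were GRF1-interacting factor 2 genes (LOC104904759 and LOC104883346), coactivators of leaf cell division, with log2 changes of 0.64 and 0.85. In 1 other gene of the 4 (25.0%, against 9.85% of all genes), every LT library lay below every C library, at a log2 change of -0.17. Among 5 chlorophyll breakdown and senescence genes, 3 (60.0%) rose and 2 (40.0%) fell in LT against C, against 31.1% and 7.23% of all genes. Their log2 changes ran from -0.90 to 1.43. In either other comparison limma called 0 of the 5, against 0.104% of all genes in ST against C and 0% in LT against ST. At an unadjusted p under 0.05, 3 were higher and 2 lower in ST against C, where all genes gave 15.1% and 7.1%. In LT against ST 1 was higher and 1 lower, where all genes gave 22.4% and 5.34%. Of the 4 genes found only by the letters in "forming", 2 (50.0%) rose and 0 fell in LT against C, against 31.1% and 7.23% of all genes. Both were succinate--CoA ligase subunits (LOC104895384 and LOC104902563), enzymes of the citrate cycle, with log2 changes of 0.49 and 0.53 (adjusted p = 0.0127 and 0.0277). The cardiolipin synthase and the receptor-associated protein did not pass, at log2 changes of 0.26 and 0.44 (adjusted p = 0.246 and 0.0525).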

How the data were processed

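The authors removed ribosomal RNA, built strand-specific libraries and aligned the paired reads with HISAT2. StringTie 1.3.1 served for assembly, and the deposited values are FPKM per transcript for 9 libraries. Cuffdiff is named for FPKM in the methods, and the build of the genome was not given in the sources used here. Groups and replicates were taken from the sample labels. FPKM was summed per gene identifier, including 572 repeated transcript rows. Genes with a group mean over 0.5 FPKM were fitted with limma 3.58.1 in R 4.3.3 on log2(FPKM + 1), with group means over all libraries, a variance trend and Benjamini-Hochberg adjustment. The steps were tested on simulated data whose planted changes were larger than those of the members called, so changes of the members' size were not covered. Figures used matplotlib 3.10.9. Alternatives covered pseudocount, filter, scaling, weights, test, replicate block, transcript choice and leaving out each library. The text names the members past the threshold, the highest member and the smallest p of each role, KIN-7E and up to 4 genes of each outside list, with exceptions marked. Members and lists were chosen with earlier results of these data known. A root marker list found 0 genes, and promoter motifs and sequences were not analysed here.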

Additional observations from a re-analysis of the deposited data

Results flagged for a closer look

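In 4 of the 57 members tested (7.02%), against 547 of all 14491 genes tested (3.77%), every ST library lay on one side of the control mean and every LT library on the other, and the difference between LT and ST did not pass limma's adjusted threshold for any of the 4. Villin-3 (LOC104889358) had a control mean of 24.5 FPKM, with ST libraries below and LT libraries above it, and a log2 difference of 0.50 between LT and ST (adjusted p = 0.0851). The cyclin-D-binding Myb-like transcription factor 1 (LOC104897206) moved the same way around a control mean of 2.20 FPKM, with a difference of 0.65 (adjusted p = 0.0837). KIN-5D (LOC104900195), of a kinesin class that slides spindle microtubules apart, had a control mean of 3.95 FPKM and a difference of 0.22 (adjusted p = 0.258). It held 3.515, 4.20 and 4.13 FPKM in C, 3.89, 3.85 and 3.53 in ST and 4.07, 5.40 and 4.21 in LT. All its ST libraries and LT replicate 1 lay inside the range of its C libraries. Kinesin-related protein 4 (LOC104904289) moved the other way, above a control mean of 9.34 FPKM in ST and below it in LT, with a difference of -0.87 (adjusted p = 0.0868).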

How the results depend on the processing

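Each count of members called was recomputed under 22 alternatives per comparison, and no member called in LT against C changed its direction under any of them. Without single libraries the count was 5 to 11 in LT against C, or 8.77% to 19.3% of the members against 16.0% to 39.9% of all genes. It was 0 to 4 in LT against ST, or 0% to 7.14% against 0% to 8.74% of all genes. In ST against C it was 0 to 0, against 0% to 3.60% of all genes. Array weights gave 19 calls in LT against C, 8 in LT against ST and 5 in ST against C, or 33.3%, 14.0% and 8.77% of the members against 53.3%, 26.2% and 15.1% of all genes. In LT against C the unmoderated F-test with a library covariate, as in Ballgown, gave 0 calls among the members and 0 among all genes, with 3 members at an unadjusted p under 0.05, and the highest single transcript of each gene gave 5 (9.09%, against 33.0% of all genes). Of the 9 calls in LT against C, 4 were kept under median-ratio scaling, 4 with the highest single transcript and 8 with equal protein-coding FPKM. The highest single transcript kept cyclin-T1-4, tubulin-folding cofactor A, KIN-7C and the kinesin light chain. It lost KIN-7F (adjusted p = 0.0572), villin-3 (0.0680), DNA polymerases kappa (0.117) and zeta (0.190) and cyclin-H1-1 (0.223). With the replicate number as a block 6 were kept, all higher, and 6 members were called (10.5%, against 22.4% of all genes). Whether the numbers pair the samples was not settled. Deviations of same-numbered libraries from their group means had r over 0.1 in 2 of 9 pairs (-0.61 to 0.35). These r were 0.35, 0.02 and 0.13 in LT against ST and negative in both comparisons with C. With 3 libraries per group the deviations within a group depend on each other, so this check cannot decide it. The block called 0 members in both other comparisons, against 0.0069% of all genes in ST against C and 0.0207% in LT against ST. Depth is unknown, so the counting error of members near the filter could not be given.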
